A study of Rattus norvegicus with 3 samples.

Results

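Importins, exportins and nuclear pore proteins were examined as 1 group of genes in RNA from the supernatant of digested rat spinal cord. Members were matched by symbol, and the members and their roles were chosen with earlier results of these data known. They comprised the KPNA and KPNB, IPO, TNPO and XPO families with CSE1L, the numbered NUP and RANBP genes, and RAN, RANGAP1, RCC1, NUTF2, TPR, NXF1, NXT1 and AAAS. This gave 53 of the 12758 gene symbols in the table. By their known role, 24 were transport receptors, 21 were pore proteins, 6 belonged to the Ran cycle and 2 were other Ran-binding proteins.

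The animals were female Sprague Dawley rats, 3 months old. No-SCI rats had a laminectomy at T9 alone, and SCI rats had the same laminectomy with a spinal cord contusion. No treatment agent or altered allele is named for either group. Tissue at T8 was taken 24 h later and digested with a cold active protease at 6 °C, the cells were pelleted, and RNA of the remaining supernatant, the fraction the study used as enriched for axons, was sequenced. The labels name 2 No-SCI libraries and 1 SCI library, while the methods of the study state 2 animals per group. The table holds 1 value per group and gene, the authors' group estimate in FPKM, a level per length of transcript, scaled for library size. Differences are given as log2 ratios, with the SCI value divided by that of No-SCI. With 1 value per group no replicate spread, standard error, interval or test could be computed for any of them. The authors' own test columns were not used, and the number of reads behind a value is not given. In bulk RNA, fewer cells or axons of a type and less RNA in each cannot be told apart.

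Nuclear transport moves proteins and RNA through the nuclear pore. Importins and exportins bind cargo and Ran, a small GTPase. RCC1 on chromatin loads Ran with GTP, and RANGAP1 with RANBP1 causes its hydrolysis in the cytoplasm, so that cargo is let go on the proper side. Importin alpha proteins read the classical nuclear localization signal and pair with importin beta 1 (KPNB1). Nucleoporins build the pore itself as a scaffold of rings, a channel lined by flexible repeats, cytoplasmic filaments and a nuclear basket. In axons, importin beta 1 and RANBP1 are known to be translated locally after nerve lesion, where they link injury signals to dynein and to transport toward the cell body.

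Transport receptors were mostly lower in SCI, and the pore proteins matched by symbol were divided. Among the 24 transport receptors, 19 were lower and 5 higher in SCI, with a median log2 ratio of −0.51. Of the 21 pore proteins, 10 were lower and 11 higher, with a median of 0.12. The median over all 12758 symbols was −0.12, and with that median set to 0 the receptors had a median of −0.39 and the pore proteins one of 0.23. The difference of the medians, receptors minus pore proteins, was −0.62 on the log2 scale, and no scaling of either group changes it. The pore direction depends on which genes are counted: with 7 further listed pore proteins whose symbols the rule does not match, 15 of 28 were lower, with a median of −0.05 and a difference of −0.46. The difference was also small, −0.06, among the 11 receptors and 8 pore proteins whose values are written with at most 6 significant digits, where the pore median was −0.08. In SCI, 56.4% of all symbols were lower by any amount.

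IPO9, XPO7 and IPO5 were at least 2-fold lower in SCI, 3 of 53 members, where 12.1% of all symbols passed that mark. The count was 2, without IPO5, under each of the 3 scalings tried and 7 with 1, the lowest value of the table, subtracted from every value. No member was at least 2-fold higher, against 7.93% of all symbols. The groups separated at smaller ratios. At 1.3-fold, the minimum the study used, 18 members were lower, where 35.7% of all symbols were, and 9 were higher, where 24.6% of all symbols were. The 18 included 14 of the 24 receptors (58.3%) and 3 of the 21 pore proteins (14.3%). The 9 included 2 receptors (8.33%) and 5 pore proteins (23.8%).

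**Figure D1:**
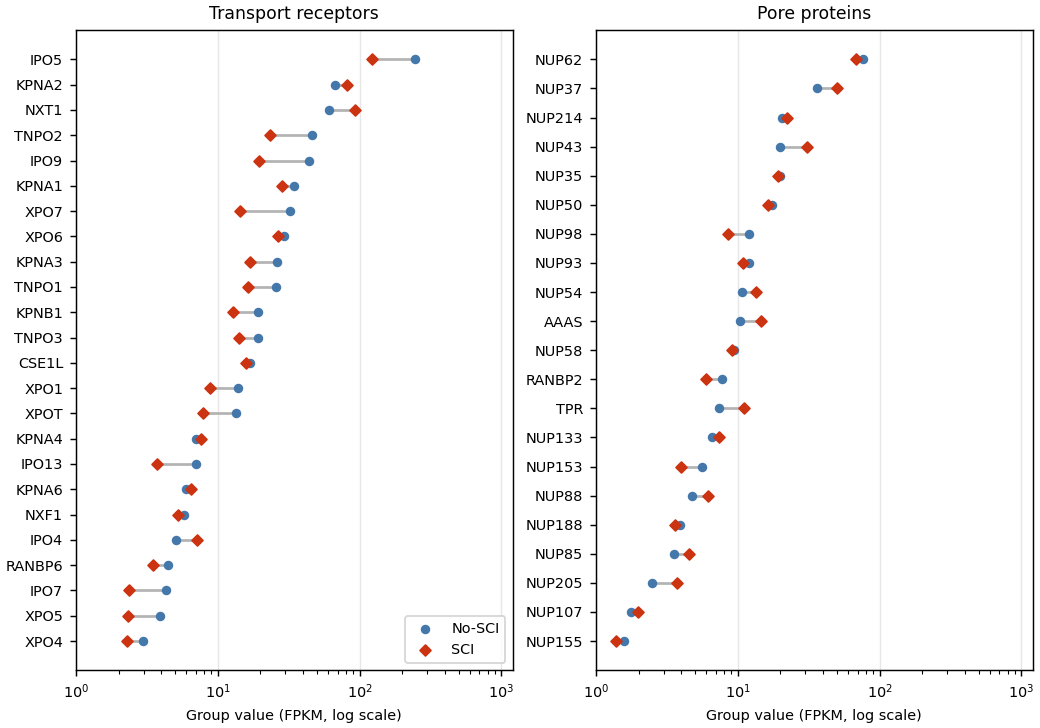
Group values in FPKM on a log axis for the 24 transport receptors (left) and the 21 pore proteins (right), 1 point per group, No-SCI as circles and SCI as diamonds, ordered by the No-SCI value. In 19 of 24 receptors the diamond lies left of the circle, against 10 of 21 pore proteins, and the points are single group values with no error.

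The importin beta family was the lowest of the receptor groups. The family binds cargo directly or through an adaptor and carries it inward, and IPO13 also carries cargo outward. Of its 10 listed members, 9 were lower in SCI and 8 were at least 1.3-fold lower, with a median log2 ratio of −0.75. The shares over all symbols were 56.4% and 35.7%. Their summed level was 422 FPKM in No-SCI and 225 FPKM in SCI. IPO5, a carrier of ribosomal proteins and histones, was by far the most abundant receptor, at 247 FPKM in No-SCI and 122 FPKM in SCI (log2 ratio −1.01). IPO9, which imports histones H2A and H2B, had the lowest log2 ratio of all members, with 43.8 FPKM in No-SCI and 19.5 FPKM in SCI (−1.17). TNPO2 lay just outside the 2-fold mark, at 46.5 FPKM in No-SCI and 23.4 FPKM in SCI (−0.99). It is the close relative of TNPO1, and both carry RNA-binding proteins with a proline-tyrosine signal.

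KPNB1, the partner of the importin alpha adaptors, was at 19.2 FPKM in No-SCI and 12.9 FPKM in SCI (log2 ratio −0.58). TNPO1 was at 25.6 and 16.5 FPKM (−0.64), and TNPO3, the carrier of splicing factors of the SR family, at 19.2 and 14.2 FPKM (−0.43), No-SCI first. Lower levels were seen for IPO13 (7.04 and 3.71 FPKM, −0.92) and IPO7 (4.30 and 2.35 FPKM, −0.87). RANBP6, a relative of IPO5, was at 4.46 FPKM in No-SCI and 3.48 FPKM in SCI (−0.36). IPO4, another histone carrier, was the exception, with 5.09 FPKM in No-SCI and 7.10 FPKM in SCI (0.48).

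Exportins carry cargo outward together with Ran bound to GTP. The 7 listed exportins were each lower in SCI, 5 of them by at least 1.3-fold, with a median log2 ratio of −0.66. Of the 7, 6 remained lower once the median of all symbols was set to 0. Over all symbols, 56.4% were lower and 35.7% at least 1.3-fold lower. XPO7 was at 32.3 FPKM in No-SCI and 14.4 FPKM in SCI (−1.16). XPO1, which exports proteins with a leucine-rich signal, was at 13.9 and 8.81 FPKM (−0.66). XPOT, the tRNA exportin, was at 13.5 FPKM in No-SCI and 7.93 FPKM in SCI (−0.76). XPO5, the exportin of microRNA precursors, was at 3.91 and 2.33 FPKM (−0.75), a similar log2 ratio at a low level. XPO4 was at 3.0 FPKM in No-SCI and 2.28 FPKM in SCI (−0.39). The smallest differences were in XPO6, the exportin of actin (29.3 and 26.8 FPKM, −0.13), and in CSE1L, which returns importin alpha to the cytoplasm (16.8 and 15.9 FPKM, −0.08, a sign that turns under each scaling that sets the median or the upper quartile of the groups equal).

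Put together, the importin beta family and the exportins, the proteins that bind Ran and travel through the pore, numbered 17. In SCI, 16 were lower and 13 (76.5%) were at least 1.3-fold lower, beside 35.7% of all symbols. Their median log2 ratio was −0.66, or −0.54 after the median of all symbols was set to 0. Their summed level was 535 FPKM in No-SCI and 304 FPKM in SCI, and IPO5 alone supplied the largest part of that difference. Of the 17, 11 had a log2 ratio below that of NUP98, the lowest of the 21 pore proteins, and 8 one below that of GLE1 (−0.68), the lowest once the 7 further pore proteins are counted.

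**Figure D2:**
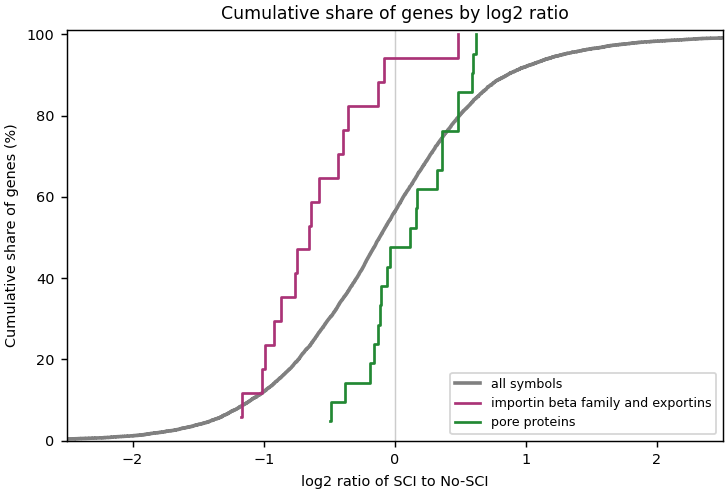
Cumulative share of genes in percent (vertical axis) against log2 of SCI over No-SCI (horizontal axis) for all 12758 symbols, the 17 members of the importin beta family and the exportins, and the 21 pore proteins. The curve of the importin beta family and exportins lies left of the curve of all symbols over most of its length, with a median of −0.66 against −0.12, and that of the pore proteins lies mostly to the right, with a median of 0.12.

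Importin alpha adaptors were divided in direction. Of the 5 listed, 2 were lower and 3 higher in SCI, with a median log2 ratio of 0.10. Within 1.3-fold were 4 of the 5, as were 5057 of all 12758 symbols. The 2 lower ones, KPNA1 and KPNA3, have values written with more than 6 significant digits, and the 3 higher ones do not. The part of this feature in the split was not tested. Their summed level was 141 FPKM in No-SCI and 140.5 FPKM in SCI. KPNA2 was the most abundant, at 67.3 FPKM in No-SCI and 81.1 FPKM in SCI (log2 ratio 0.27). KPNA1 followed, at 34.8 and 28.4 FPKM (−0.29), and then KPNA3, at 26.3 and 16.9 FPKM (−0.64), the only adaptor at least 1.3-fold lower. KPNA4, the closest relative of KPNA3, was at 7.05 FPKM in No-SCI and 7.65 FPKM in SCI (0.12), so this pair differed in direction. KPNA6 was at 6.02 and 6.46 FPKM (0.10). The order of the 5 levels was the same in both groups, and without a spread it is not known which neighbours in it differ.

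The receptor for bulk mRNA export is a pair of proteins, NXF1 and NXT1. NXF1, which binds the RNA and the pore, was at 5.82 FPKM in No-SCI and 5.26 FPKM in SCI (log2 ratio −0.15). NXT1, its small cofactor, was at 61.3 and 93.3 FPKM (0.61), the highest ratio of the receptors.

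Ran itself and RANBP1 were higher in SCI while most importin beta family members and exportins were lower. RAN was the most abundant member, at 643 FPKM in No-SCI and 879.5 FPKM in SCI (log2 ratio 0.45). Rodent genomes hold processed copies of Ran, and how shared reads were assigned is not given in the sources used here, so this level is uncertain. RANBP1, which binds Ran with GTP and helps its hydrolysis, was at 147 FPKM in No-SCI and 242 FPKM in SCI (0.72), the highest log2 ratio of all members. RANGAP1, the activator of that hydrolysis, was at 175 and 156 FPKM (−0.16). RCC1, the exchange factor that loads GTP, was at 109 and 84.9 FPKM (−0.35). NUTF2, which carries Ran back into the nucleus, was at 555 and 536 FPKM (−0.05), and RANBP3, a cofactor of XPO1, at 28.2 and 27.7 FPKM (−0.03). The signs of NUTF2 and RANBP3 turn when the median or the upper quartile of the groups is set equal.

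As a ratio of levels within each group, RAN exceeded KPNB1 by 33.5-fold in No-SCI and 68.4-fold in SCI. For RAN over XPO1 the ratio was 46.4 without injury and 99.8 with it. For RANBP1 over KPNB1 it was 7.65 and 18.8. KPNB1 over XPO1, the main import carrier against the main export carrier, gave 1.39 and 1.46. These ratios do not depend on how the groups were scaled. The remaining Ran-binding proteins were RANBP10, a binder of Ran and tubulin, with 40.3 FPKM in No-SCI and 20.8 FPKM in SCI (log2 ratio −0.95), and RANBP9, its relative, with 2.75 and 2.83 FPKM (0.04).

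**Figure D3:**
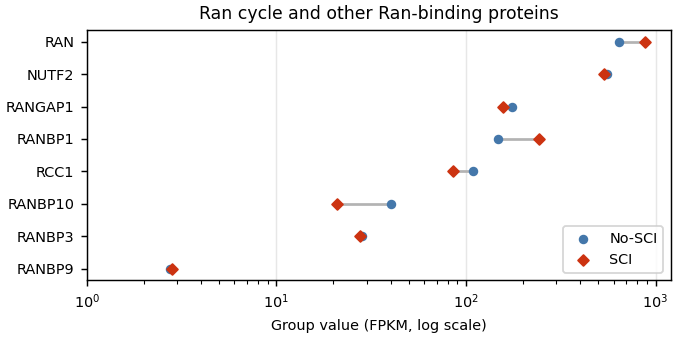
Group values in FPKM on a log axis for the 6 members of the Ran cycle and the 2 other Ran-binding proteins, No-SCI as circles and SCI as diamonds, with no error since each is 1 group value. RAN and RANBP1 lie to the right in SCI, at 879.5 and 242 FPKM, and RANBP10 lies to the left, at 20.8 FPKM.

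The 21 pore proteins ranged from −0.49 to 0.62 on the log2 scale, and 13 of them were within 1.3-fold, as were 5057 of all 12758 symbols. With the 7 further ones the range was −0.68 to 1.496. Their summed level was 290.2 FPKM in No-SCI and 313 FPKM in SCI. The sum of the 24 receptors was 743 FPKM in No-SCI and 543 FPKM in SCI, so the ratio of summed receptor to summed pore level was 2.56 in No-SCI and 1.73 in SCI. IPO5 alone, at 247 FPKM in No-SCI and 122 FPKM in SCI, supplied the largest part of the difference in the receptor sum. By log2 ratio, 20 of the 24 receptors lay below the pore protein median, and 0 of the 21 pore proteins lay below the receptor median. With the 7 further pore proteins these counts were 19 of 24 and 2 of 28.

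The Y complex, the outer scaffold ring on both faces of the pore, was mostly higher in SCI. The 5 subunits matched by symbol were each higher in SCI under each of the scalings tried, with a median log2 ratio of 0.36. Of all symbols, 56.4% were lower. Their summed level was 68.0 FPKM in No-SCI and 94.9 FPKM in SCI. NUP43 was at 20.02 FPKM in No-SCI and 30.7 FPKM in SCI (0.62), the highest ratio of the 21 pore proteins. NUP37 was at 36.1 and 50.3 FPKM (0.48), and both are small propeller subunits at the arms of the Y. The log2 ratios of NUP85, NUP107 and NUP133 were 0.36, 0.17 and 0.16, at levels from 1.76 to 7.36 FPKM. The further subunit SEC13, which also coats transport vesicles, was at 22.4 FPKM in No-SCI and 39.7 FPKM in SCI (0.83). AHCTF1 (ELYS), which tethers the complex to chromatin, was lower, at 5.46 and 4.37 FPKM (−0.32), so 6 of these 7 genes were higher. The subunits NUP160 and SEH1L had no entry. The subunit NUP96 is encoded by the transcript of NUP98, which was lower (−0.49) and is not in this count.

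In the inner ring, 4 of 5 members were lower and 1 higher, where 56.4% of all symbols were lower. Their median log2 ratio was −0.11, which becomes 0.0029 when the median of all symbols is set to 0. NUP35, NUP93, NUP155 and NUP188 had log2 ratios from −0.19 to −0.03, each within 1.3-fold. NUP205, the large scaffold protein related to NUP188, differed from them, with 2.49 FPKM in No-SCI and 3.74 FPKM in SCI (0.59). NUP155 lay near the lowest value, 1, at 1.58 FPKM in No-SCI and 1.38 FPKM in SCI. Its log2 ratio was −0.59 with 1 subtracted from every value. The signs of NUP188 and NUP35 turn when the groups are set to an equal median.

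The central channel proteins NUP62, NUP58 and NUP54 form 1 complex lined with phenylalanine-glycine repeats. NUP62 was the most abundant pore protein, at 76.3 FPKM in No-SCI and 68.2 FPKM in SCI (log2 ratio −0.16). NUP54 was at 10.7 and 13.4 FPKM (0.32) and NUP58 at 9.44 and 9.05 FPKM (−0.06, a sign that turns with an equal median), so the 3 subunits did not share a direction.

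On the cytoplasmic face, NUP88, NUP214 and AAAS were higher in SCI, with log2 ratios of 0.36, 0.12 and 0.48. RANBP2, the giant filament protein that holds RANGAP1 at the pore and binds kinesin, was at 7.76 FPKM in No-SCI and 5.96 FPKM in SCI (−0.38). NUP98, which joins the scaffold to the channel, was at 12.1 and 8.61 FPKM (−0.49). Its transcript also encodes the Y complex protein NUP96, which has no entry of its own. In the basket, TPR was at 7.36 FPKM in No-SCI and 11.2 FPKM in SCI (0.60), NUP153 at 5.57 and 3.98 FPKM (−0.49), and NUP50, a cofactor of importin alpha, at 17.5 and 16.3 FPKM (−0.11, a sign that turns with an equal median). RANBP2, NUP98 and NUP153 were the 3 of the 21 at least 1.3-fold lower. NUP43, NUP37, NUP205, TPR and AAAS were the 5 of the 21 at least 1.3-fold higher.

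**Figure D4:**
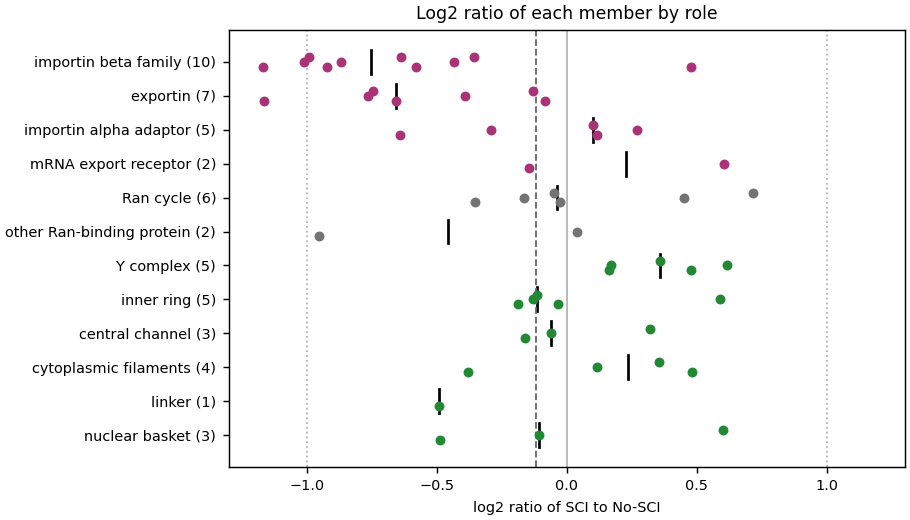
Log2 of SCI over No-SCI for each of the 53 members (points, spread vertically for legibility), grouped by role with the number of members in brackets, with black bars at the medians. The dashed line is the median of all symbols (−0.12), the solid grey line is 0 and the dotted lines mark 2-fold. The importin beta family and the exportins lie mostly left of the dashed line, with medians of −0.75 and −0.66, and the 5 Y complex members lie right of it.

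Receptors had lower log2 ratios than pore proteins in each range of level that held several of both. When members were grouped by their mean of both FPKM values, the receptor median log2 ratio was −0.57 under 5 FPKM (4 genes), −0.29 from 5 to 20 FPKM (10 genes) and −0.64 from 20 to 100 FPKM (9 genes). Pore proteins had medians of 0.03 (6 genes), −0.03 (11 genes) and 0.30 (4 genes) in those ranges, and all symbols −0.14, −0.19 and −0.11.

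A feature of the table moved with the result. Some of its values are written with more than 6 significant digits, and 30 of the 53 members (56.6%) had such a value, as did 58.6% of all symbols. Over all symbols the median log2 ratio was −0.22 with such a value and 0.01 without. The 13 receptors with such a value were each lower in SCI, with a median of −0.64, while of the 11 others 6 were lower, with a median of −0.15. Within the importin beta family and the exportins, however, the 6 without such a value had a median of −0.66, with 5 of 6 lower. Among pore proteins the medians were 0.17 with such a value (13 genes) and −0.08 without (8 genes). The difference of medians, receptors minus pore proteins, was −0.81 with such a value and −0.06 without, and IPO9, XPO7 and IPO5 each had one. What this feature stands for is not given in the sources used here, and its part in the result was not tested.

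RNA of several cell type markers also differed between the group values. Neuronal markers were listed for 10 of 12 genes, with 8 lower, 5 of them at least 2-fold, and a median log2 ratio of −0.97, and SNAP25 and NEFM had no entry. Over all symbols, 56.4% were lower by any amount and 12.1% at least 2-fold lower. The neuronal sum was 1785 FPKM in No-SCI and 1656 FPKM in SCI, and GAP43 supplied 1275 and 1406 FPKM of it. Oligodendrocyte markers (9 of 10 listed, MBP without an entry) were lower in 8, with a median log2 ratio of −1.53, and astrocyte markers (5 of 10 listed, GFAP, AQP4, S100B, SLC1A3 and ALDOC without an entry) in 5, with a median of −1.31. Their sums were 52180 and 30200 FPKM for oligodendrocyte markers and 13993 and 8907 FPKM for astrocyte markers, No-SCI first. Among the latter, GLUL was at 5858 and 5624 FPKM (−0.06). Microglial (10 of 10 listed, median 0.09), endothelial (6 of 8, 0.11) and neutrophil and blood markers (5 of 8, −0.08) were divided in direction. Meningeal fibroblast markers were higher in 10 of 10, from a sum of 78.0 FPKM in No-SCI to 786 FPKM in SCI, and skeletal muscle markers were lower in 9 of 9 listed, from 395 to 33.5 FPKM. Among the latter, MYH1 and MYH2 hold the same values (2.71 and 1.18 FPKM), so they may not be separate estimates. These values and those of MYH4 (1.85 and 1.09 FPKM) lie near the lowest value, 1. The part of these differences in the receptor and pore values was not tested.

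Other genes of nuclear transport and the nuclear envelope gave 57 listed of 62, with 28 lower and 29 higher in SCI and a median log2 ratio of 0.06. Of these, 3 were at least 2-fold lower and 4 at least 2-fold higher, where 12.1% and 7.93% of all symbols were. By any amount, 56.4% of all symbols were lower. The 7 further pore proteins, set beside the others above, were mostly lower (5 of 7), with a median of −0.32. GLE1, POM121 and NDC1, an export factor and a pair of membrane anchors, had log2 ratios of −0.68, −0.52 and −0.49. RAE1, the mRNA export factor that binds NUP98, was at 8.39 FPKM in No-SCI and 23.7 FPKM in SCI (1.496), a log2 ratio opposite in sign to that of NUP98. Adaptors such as the snurportin SNUPN and the ribosome export factor NMD3 were higher in 6 of 7, with a median of 0.28. Of these 7, 5 were within 1.3-fold, as were 5057 of all 12758 symbols. The TREX complexes, which pack mRNA for NXF1, had 10 of 17 lower (58.8%, beside 56.4% of all symbols). Their median was −0.06, or 0.06 with an equal median of all symbols. The SUMO cycle that modifies RANGAP1 was lower in 4 and higher in 4, with a median of 0.04.

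In the lamina and the LINC complex, which ties the nucleus to the cytoskeleton, 7 of 9 listed genes were higher, with a median log2 ratio of 0.42. Of all symbols, 56.4% were lower. LMNA, the A-type lamin, was at 45.8 FPKM in No-SCI and 124 FPKM in SCI (1.43). LMNB1, a B-type lamin, was at 2.54 and 5.59 FPKM (1.14), and SUN1, an inner membrane anchor, at 31.5 and 11.8 FPKM (−1.42), so lamins and this anchor had opposite directions.

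Partners of importins in axonal injury signalling were lower in 6 of 9, where 56.4% of all symbols were, with a median log2 ratio of −0.37. Vimentin (VIM), which links importin beta to phosphorylated ERK in injured nerve, was at 819 FPKM in No-SCI and 1674 FPKM in SCI (1.03). It is also expressed by fibroblasts, endothelium and reactive astrocytes. DYNC1I1, the neuronal dynein intermediate chain, was at 14.2 and 5.85 FPKM (−1.28). ATF3, a transcription factor of the injury response, was at 246 FPKM in No-SCI and 48.6 FPKM in SCI (−2.34). KPNB1, DYNC1I1 and ATF3 were thus lower, and RANBP1 and VIM higher, in the SCI value.

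**Figure D5:**
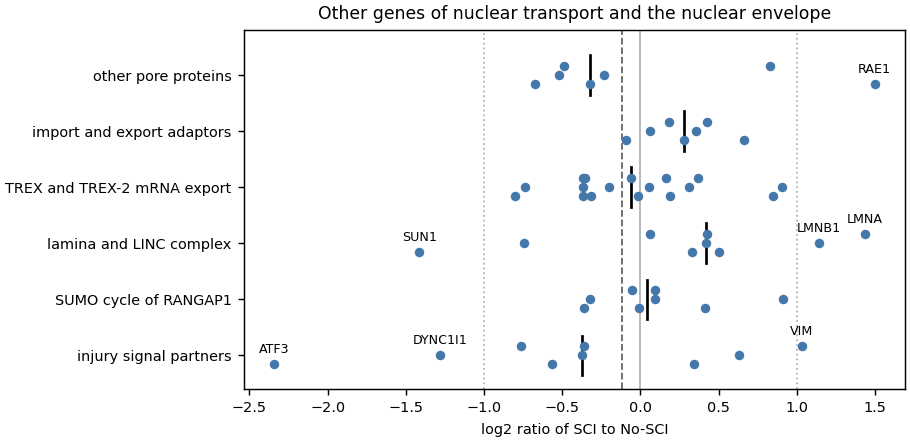
Log2 of SCI over No-SCI for the 57 listed genes of 6 further lists (points, spread vertically for legibility), with black bars at the medians, the median of all symbols dashed and dotted lines at 2-fold. Genes past 2-fold are named, with ATF3 at −2.34 the lowest and RAE1 at 1.496 the highest.

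Promoters are shown for IPO9 and IPO5, which were at least 2-fold lower in SCI, and for RAN and RANBP1, the most abundant member and the one with the highest log2 ratio, so that genes of opposite direction can be read side by side. Each runs 5′ to 3′ on the strand of its gene, from 250 bases before the start to 50 bases after it, in the RefSeq annotation of GRCr8. The FPKM values were made on rn6, another build, and were not measured at these positions. Capitals mark matches, on either strand, to any of 5 short motifs. The CCAAT box has the letters of its name. Binding sites of SP1 were searched as GGGCGG. For NRF1 the core searched was GCATGCGC. The E-box was taken in its palindromic form, CACGTG. Sites of ETS factors were searched with the core letters CCGGAAGT.
IPO9, chr13:49414428-49414727, minus strand: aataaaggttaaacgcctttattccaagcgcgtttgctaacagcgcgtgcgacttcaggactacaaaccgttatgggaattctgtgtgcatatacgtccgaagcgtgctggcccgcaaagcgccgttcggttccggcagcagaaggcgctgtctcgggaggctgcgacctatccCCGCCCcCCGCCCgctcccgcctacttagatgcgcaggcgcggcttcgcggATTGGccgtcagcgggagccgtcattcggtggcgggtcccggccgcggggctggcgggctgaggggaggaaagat
IPO5, chr15:104411998-104412297, plus strand: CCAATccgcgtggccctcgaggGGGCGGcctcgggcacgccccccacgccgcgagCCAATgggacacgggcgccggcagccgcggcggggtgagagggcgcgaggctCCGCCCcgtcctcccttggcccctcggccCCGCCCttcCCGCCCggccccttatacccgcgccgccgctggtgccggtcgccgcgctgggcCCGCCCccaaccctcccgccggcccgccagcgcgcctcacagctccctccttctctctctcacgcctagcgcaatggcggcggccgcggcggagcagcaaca
RAN, chr12:33314241-33314540, minus strand: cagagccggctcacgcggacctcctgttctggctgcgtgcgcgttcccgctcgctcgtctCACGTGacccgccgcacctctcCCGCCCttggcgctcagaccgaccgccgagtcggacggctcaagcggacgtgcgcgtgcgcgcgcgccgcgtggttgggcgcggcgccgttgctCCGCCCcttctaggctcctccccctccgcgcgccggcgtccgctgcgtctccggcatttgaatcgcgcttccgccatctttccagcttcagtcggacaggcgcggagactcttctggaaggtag
RANBP1, chr11:96246662-96246961, plus strand: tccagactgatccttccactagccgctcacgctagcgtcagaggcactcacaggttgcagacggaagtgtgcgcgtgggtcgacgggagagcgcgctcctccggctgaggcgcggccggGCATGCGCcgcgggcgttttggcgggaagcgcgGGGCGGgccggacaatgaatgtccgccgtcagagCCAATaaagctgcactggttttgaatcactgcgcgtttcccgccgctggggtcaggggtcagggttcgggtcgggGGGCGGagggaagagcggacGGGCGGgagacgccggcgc
IPO5 held CCAAT and GGGCGG matches, and so did IPO9. RANBP1 held these and a GCATGCGC match, and RAN a GGGCGG and a CACGTG match. Over the 47 members with a promoter in the table, 68.1% held GGGCGG and 44.7% CCAAT, where the promoters of 9762 symbols of the expression table held them in 61.6% and 38.1%, and all 27457 promoters in 34.9% and 37.7%. CCAAT was in 57.1% of 14 promoters of the importin beta family and the exportins and in 40% of 20 promoters of pore proteins. In the same order, GGGCGG was in 64.3% and 70%, GCATGCGC in 7.14% and 10%, CACGTG in 14.3% and 20%, and CCGGAAGT in 21.4% and 5%. XPO7, XPOT and KPNB1 had no promoter entry. GCATGCGC, CACGTG and CCGGAAGT were in 8.51%, 14.9% and 8.51% of members and in 5.03%, 9.29% and 8.07% of symbols of the table. No motif searched contains another, each promoter was counted once per motif, and a match is a description of letters, not of binding.

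Some genes of the family had no entry and were not analysed here, namely KPNA5, KPNA7, IPO8, IPO11, RANBP17, RANBP3L, NUP160, NUP210, NUP62CL and NUP210L. NUP42 is listed under its older symbol NUPL2, outside the rule, with 22.8 FPKM in No-SCI and 19.4 FPKM in SCI (log2 ratio −0.23).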

How the data were processed

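Supernatant RNA of spinal cord was measured in female rats with a laminectomy alone (No-SCI) or with a contusion (SCI), as total RNA libraries depleted of ribosomal RNA. Per the methods and the submitters' processing notes, the authors reduced every library to the read number of the smallest, mapped reads to rn6 (STAR 2.5.4b) and ran Cuffdiff 1.3.0 with upper quartile scaling. FPKM as deposited is 1 estimate of the authors per group and gene, and which libraries entered it is not given in the sources used here. The lowest value in the table is 1. The table also holds the authors' fold changes, log2 fold changes, p-values, q-values and calls, none of which was used. No column was left without a group.

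From the FPKM values, log2 ratios of SCI to No-SCI were computed without a pseudocount. A fold of 2 served as a description, with 1.3 beside it, and called means past such a fold. Of 13 symbols listed more than once (0 members), the entry with the larger mean was kept, which left 12758 of 12771 entries. All 53 members matched a RefSeq symbol of GRCr8. Values were named for members past 2-fold, the most abundant members of each class, the importin alphas and the core of the Ran cycle, and further members were named after their values were seen. The members, roles and gene lists were chosen with earlier results of these data known. The table holds no value per library, so no test was run. The study states the reads obtained per sample, but not the number kept after reduction to the smallest library. The alternatives were pseudocounts of 1 and 0.1, a subtraction of 1, 3 scalings, a minimum mean of 5 FPKM, all entries kept, folds of 1.5 and 1.3, the mean in place of the median, and receptors without adaptors and mRNA export receptors. Further pore proteins and a split by the digits of the values were added after seeing the data. Scripts in Python 3.11.15 (numpy 2.4.6, pandas 2.3.3, matplotlib 3.10.9) were tested on simulated data.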

Additional observations from a re-analysis of the deposited data

How the results depend on the processing

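With 1 value per group, no library could be left out, so leaving out a replicate was not run, and error between animals is not covered. No paired analysis was possible because the table holds no value per library. Setting the median of all symbols to 0 adds 0.12 to each log2 ratio, an equal upper quartile 0.10 and an equal total 0.05. The sign turned under at least 1 of these scalings in 7 members within 1.3-fold (NUTF2, RANBP3, NUP58, NUP188, NUP35, NUP50 and CSE1L). Members at least 2-fold lower numbered 3 as reported, 2 under each of the 3 scalings (IPO5 then missed the mark), 7 with 1 subtracted from every value, 12 at 1.5-fold and 18 at 1.3-fold. Members at least 2-fold higher numbered 0, with 5 at 1.5-fold and 9 at 1.3-fold.

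The receptor median of −0.51 was −0.48 with 1 added, −0.50 with 0.1 added, −0.39 with an equal median, −0.46 with an equal total, −0.40 with an equal upper quartile, −0.63 with 1 subtracted, −0.43 as a mean and −0.66 for the importin beta family and exportins alone. The pore protein median of 0.12 was 0.11 with 1 added, 0.23, 0.16 and 0.22 with an equal median, total and upper quartile, and 0.10 as a mean. The difference of −0.62 was −0.59 with 1 added, −0.75 with 1 subtracted, −0.53 between means and −0.77 for the importin beta family and exportins alone. The cause was not tested for the alternatives chosen after seeing the data. With the 7 further pore proteins the pore median turned to −0.047 and the difference was −0.46. Among symbols with at most 6 digits, 0 members were at least 2-fold lower, the receptor median was −0.15, the pore median turned to −0.084 and the difference was −0.062. With over 6 digits these were 3 members, −0.64, 0.17 and −0.81. The receptor median and the difference stayed negative under each alternative run, and the pore median was positive under each except these 2.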
